A study of Homo sapiens with 8 samples.

Results

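NRF2 antioxidant target genes were examined in HepG2 cells, a human cell line that derives from a liver tumor. The set holds NFE2L2, which encodes the transcription factor NRF2, and 8 of its well-known target genes, NQO1, HMOX1, GCLM, GCLC, TXNRD1, SRXN1, SLC7A11 and OSGIN1. They were chosen by symbol as NRF2 genes, with earlier results of these data known, and 9 of the 9 symbols were found among the 17561 genes of the expression table. The cells were transfected either with pGRHL2, a plasmid for flag-tagged GRHL2, a transcription factor of epithelial cells, or with pcDNA3, and RNA was harvested 48 h later. Each plasmid had 4 libraries numbered 1 to 4, and all cells were grown on gelatin in medium that contained serum, insulin and dexamethasone. In pGRHL2, the GRHL2 cDNA was driven by an EEF1A1 promoter and the construct also encoded enhanced green fluorescent protein, so that promoter and reporter also differed between the plasmids.

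NRF2 is the main transcription factor of the response to electrophiles and oxidants. In resting cells, the adaptor protein KEAP1 binds NRF2 and directs it to degradation. Once released, NRF2 pairs with a small MAF protein at antioxidant response elements and raises transcription of genes for glutathione synthesis, thioredoxin recycling, quinone reduction and heme breakdown, while BACH1 competes for the same sites as a repressor. Since much of this control acts on the NRF2 protein, the NFE2L2 transcript is an incomplete readout of NRF2 activity. In the liver, the response protects hepatocytes against reactive drug metabolites.

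The DNA letters through which NRF2 acts are shown for the genes in which they were found close to the transcription start. The letters TGACNNNGC, the core of the antioxidant response element, and TGANTCAGC, a related form that also holds an AP-1-like part, were searched on both strands of RefSeq promoter windows (GRCh38.p14) of 300 bases, from 250 bases before to 50 bases after each start. A site with C after TGA and TCAGC after that C would match both forms. These windows covered 7 of the 9 genes, HMOX1 and SLC7A11 being the 2 genes not analysed here. The core was held by 13.3% of all 35116 windows and the related form by 1.36%, so that a match to the core alone is common. In the 4 stretches below, from hg38 and read 5′ to 3′ on the strand of the gene, capitals mark the match.
GCLM, chr1:93909431-93909489, minus strand: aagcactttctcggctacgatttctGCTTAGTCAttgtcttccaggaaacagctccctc
TXNRD1, first start, chr12:104215655-104215713, plus strand: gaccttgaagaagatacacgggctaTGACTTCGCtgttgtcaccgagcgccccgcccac
TXNRD1, second start, chr12:104286905-104286963, plus strand: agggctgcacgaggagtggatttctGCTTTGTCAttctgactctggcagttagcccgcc
OSGIN1, chr16:83953116-83953174, plus strand: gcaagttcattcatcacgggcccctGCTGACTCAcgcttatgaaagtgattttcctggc

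The GCLM match began 34 bases before the start. Those of TXNRD1 began 99 and 102 bases before its annotated starts, and that of OSGIN1 began 99 bases before a start at 83953240. The start used for GCLM, the second start of TXNRD1 and this start of OSGIN1 lie within the longer gene spans given below. The match lay on the strand of the gene at the first start of TXNRD1 and on the opposite strand in the other 3 stretches. The windows of NFE2L2, GCLC, NQO1 and SRXN1 held neither form, which says only that these letters were not found so close to the start. The letters AACNNGTT, the core of sites bound by Grainyhead proteins such as GRHL2, were found in 0 of the 9 windows of these 7 genes and in 3.52% of all windows.

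The transfected gene was checked first. GRHL2 was higher in pGRHL2 in 4 of 4 pairs, by 8.97 to 10.26 on the log2 scale. Values in the deposited table behave as log2 levels. The study describes a scaling by transcript length whose form in the table is not certain, so that levels of different genes are compared only roughly. Within each pair of same-numbered libraries, the values of a gene mirror each other around a mean that is the same for the 4 pairs. A gene's groups therefore do not overlap exactly when its 4 pair differences share a sign, and the SD printed beside a log2 FC (pGRHL2/pcDNA3) is that of its 4 pair differences. The depth behind each value is unknown, as the table holds no counts. As bulk RNA was measured, fewer cells with a transcript and less of it per cell cannot be told apart, and neither can transfected and untransfected cells. Of the marker genes examined, 6 of 6 hepatocyte markers were in the table, with a mean log2 value of 13.44 to 13.71 over the 8 libraries and 0 called between plasmids, and 0 of 2 leukocyte markers were in the table.

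**Figure D1:**
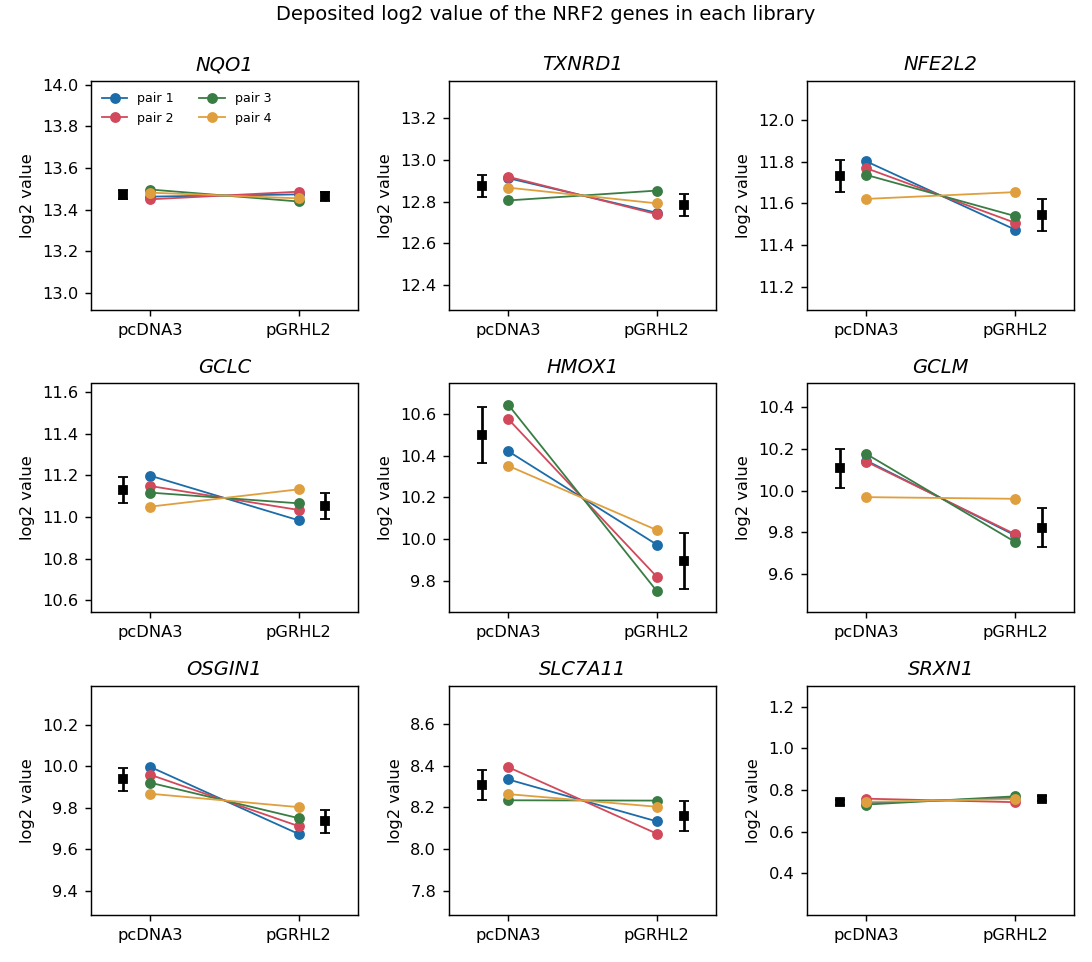
Deposited log2 value (y axis) of the 9 NRF2 genes in the 4 pcDNA3 and 4 pGRHL2 libraries, with a line for each pair. Squares with bars are the group mean ± SD (n = 4), and each panel spans the same height. As the values of a pair mirror each other around the same mean, the SD is equal in both groups. It therefore leaves out any difference in level between pairs. HMOX1 shows the widest separation, with pcDNA3 libraries from 10.35 to 10.64 and pGRHL2 libraries from 9.75 to 10.04, whereas NQO1 and SRXN1 are close to flat.

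The transcripts differed widely in level. NQO1 was the most abundant, at a mean log2 value of 13.47 over the 8 libraries, higher than 99.6% of the table or equal to it. TXNRD1 (12.83), NFE2L2 (11.64) and GCLC (11.09) followed, then HMOX1 (10.20), GCLM (9.96), OSGIN1 (9.84), SLC7A11 (8.23) and SRXN1 (0.75). Each of these genes exceeded the next in 8 of 8 libraries, except that HMOX1 exceeded GCLM in 7 of 8. All but SRXN1 lay above the library medians (6.71 to 6.73) under both plasmids. For SRXN1, 90.7% of its 2528 exon bases in GENCODE release 44 also belong to another gene model on the same strand, ENSG00000270299. Reads over such bases are ambiguous in the union counting the authors used, so that the SRXN1 value is uncertain. The part of this overlap in its low value was not tested.

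Upon GRHL2 expression, HMOX1 fell and none of the other NRF2 genes passed the test. Of the 9 genes, 1 was called lower and 0 were called higher by limma at an adjusted p under 0.05 over all genes. Among all genes tested, 2.19% were called, 0.501% as lower and 1.69% as higher. The mean was lower in pGRHL2 for 8 of the 9 genes, as for 48.5% of all genes, and their median log2 FC was -0.15, compared with 0.0017 over all genes. Groups did not overlap for 4 of the 9 genes, each lower in pGRHL2, against 10.5% of all genes, and 24.0% of all genes in either direction. An unadjusted p under 0.05 was found for 4 of the 9 genes, each lower, against 6.78% of all genes. Abundant genes tended to be lower in pGRHL2 throughout the table, as 59.3% of the 6484 genes with a mean log2 value of at least 8 had a lower mean, and 15.1% of them were lower without overlap. This level was chosen after the values had been seen, and the NRF2 genes other than SRXN1 were above it.

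**Figure D2:**
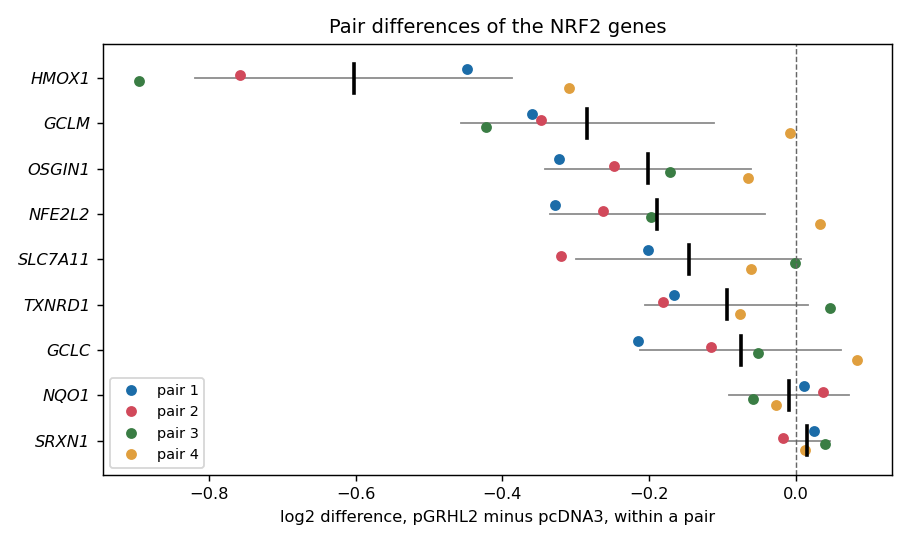
Log2 difference (pGRHL2 minus pcDNA3, x axis) of each NRF2 gene in each of the 4 pairs (points), with the mean (black bar) and its 95% interval from limma (grey line). HMOX1 lies left of 0 in every pair (-0.31 to -0.90), and GCLM, OSGIN1, NFE2L2 and GCLC have their highest value in pair 4.

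HMOX1 encodes heme oxygenase 1, the inducible enzyme that opens the heme ring to biliverdin, carbon monoxide and iron. Its gene occupies chromosome 22 of hg38, 35380361 to 35394214, plus strand, and shares 0 exon bases with other genes. Libraries 1 to 4 of pGRHL2 had log2 values of 9.97, 9.82, 9.75 and 10.04, while those of pcDNA3 had 10.42, 10.58, 10.64 and 10.35. Every pGRHL2 library was below every pcDNA3 library, and the pair differences ran from -0.31 in pair 4 to -0.90 in pair 3. HMOX1 thus had a log2 FC of -0.60 ± 0.27 (SD over 4 pairs; 95% interval -0.82 to -0.39; limma adjusted p of 0.0175). This corresponds to a level that fell by 34.1% and ranked 9 from the lowest of the 17561 log2 FC. The call was lost without replicate 1, 2 or 3 (limma adjusted p of 0.072, 0.086 and 0.072) and without the variance trend (0.112), and kept without replicate 4 (0.0288). Across these settings the log2 FC lay between -0.70 and -0.51.

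Glutathione synthesis is represented by GCLM and GCLC, the modifier and catalytic subunits of glutamate-cysteine ligase, and by SLC7A11, the cystine-importing subunit of the antiporter xCT. GCLM, on chromosome 1 from 93885199 to 93909456 on the minus strand, had log2 values of 9.79, 9.79, 9.75 and 9.96 in pGRHL2 and of 10.14, 10.14, 10.18 and 9.97 in pcDNA3. It was lower in 4 of 4 pairs, although pair 4 differed by only -0.0080. GCLM had a log2 FC of -0.28 ± 0.19 (SD over 4 pairs; 95% interval -0.46 to -0.11) and was not called (limma adjusted p of 0.0995). It was called without replicate 4 (log2 FC of -0.38, limma adjusted p of 0.038). Its promoter stretch, printed above, carries the antioxidant response element core.

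The catalytic subunit showed a smaller difference. GCLC, on chromosome 6 from 53497341 to 53616970 on the minus strand, had log2 values of 10.98, 11.03, 11.07 and 11.13 in pGRHL2 and of 11.20, 11.15, 11.12 and 11.05 in pcDNA3. The groups overlapped, with a higher pGRHL2 value in pair 4 only, and the log2 FC was -0.07 ± 0.12 (95% interval -0.21 to 0.06; limma adjusted p of 0.618). SLC7A11, on chromosome 4 from 138164097 to 138242349 on the minus strand, had log2 values of 8.13, 8.07, 8.23 and 8.20 in pGRHL2 and of 8.33, 8.39, 8.23 and 8.26 in pcDNA3. It was lower in 4 of 4 pairs, but by only -0.0014 in pair 3, and its log2 FC of -0.15 ± 0.14 was not called (95% interval -0.30 to 0.01; limma adjusted p of 0.340). GCLC and SLC7A11 share 9.7% and 9.0% of their exon bases with other genes, and how far this affects their values was not tested.

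In the thioredoxin system, TXNRD1 encodes the cytosolic reductase that recycles thioredoxin and SRXN1 the enzyme that repairs overoxidized peroxiredoxins. TXNRD1, at 104215779 to 104350307 of chromosome 12 (plus strand), had log2 values of 12.75, 12.74, 12.85 and 12.79 in pGRHL2 and of 12.91, 12.92, 12.81 and 12.87 in pcDNA3. It was lower in pairs 1, 2 and 4 and higher in pair 3, and the log2 FC was -0.09 ± 0.10 (95% interval -0.20 to 0.02; limma adjusted p of 0.404). Both of its starts carried the antioxidant response element core shown above. SRXN1, on chromosome 20 from 646615 to 653200 on the minus strand, ranged from 0.74 to 0.77 in pGRHL2 and from 0.73 to 0.76 in pcDNA3, and its log2 FC was 0.02 ± 0.02 (limma adjusted p of 0.667). Given its uncertain value, nothing can be read from SRXN1.

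NQO1 encodes a quinone reductase and is a widely used marker of NRF2 activity. On chromosome 16, it spans 69706996 to 69726668 on the minus strand, and 19.4% of its exon bases overlap an antisense gene, which unstranded counting cannot separate. Its log2 values were 13.47, 13.49, 13.44 and 13.45 in pGRHL2 and 13.46, 13.45, 13.50 and 13.48 in pcDNA3. Groups overlapped, pairs were split evenly in direction, and the log2 FC was -0.01 ± 0.04 (95% interval -0.09 to 0.07; limma adjusted p of 0.943). The interval of NQO1 thus lay apart from that of HMOX1 (-0.82 to -0.39), although the difference between the 2 genes was not itself tested.

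OSGIN1 encodes a growth inhibitor induced by oxidative stress. On chromosome 16, it spans 83931311 to 83966332 on the plus strand, and 8.2% of its exon bases are shared with MLYCD on the same strand. Log2 values were 9.67, 9.71, 9.75 and 9.80 in pGRHL2 and 10.00, 9.96, 9.92 and 9.87 in pcDNA3. The groups did not overlap, but OSGIN1 was not called, with a log2 FC of -0.20 ± 0.11 (SD over 4 pairs; 95% interval -0.34 to -0.06; limma adjusted p of 0.146). Its promoter stretch is the one shown above that carries the AP-1-like form.

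NFE2L2 itself, on chromosome 2 from 177218667 to 177392756 on the minus strand, had log2 values of 11.47, 11.51, 11.54 and 11.65 in pGRHL2 and of 11.80, 11.77, 11.74 and 11.62 in pcDNA3. It was lower in pairs 1 to 3 and higher in pair 4, by 0.03, so that the groups overlapped. NFE2L2 was not called, with a log2 FC of -0.19 ± 0.16 (SD over 4 pairs; 95% interval -0.34 to -0.04; limma adjusted p of 0.191). In its annotation, 38.4% of exon bases are shared with other genes, mostly with HNRNPA3 on the opposite strand, and how far this affects its value was not tested.

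The pairs were not alike. The median difference over the 9 genes was -0.21, -0.25, -0.06 and -0.03 in pairs 1 to 4, whereas the median over all genes lay between 0.0008 and 0.0059. Pair 4 held the highest difference of 5 of the 9 genes and the lowest of 0. In pairs 1 to 4, 7, 8, 7 and 6 of the 9 genes were lower, while GRHL2 was higher by 8.97, 9.51, 10.26 and 9.18.

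The regulators of NRF2 were read next. Of 13 genes, 1 was called lower and 0 were called higher, against 0.501% and 1.69% of all genes. The mean was lower in pGRHL2 for 11 of the 13, against 48.5% of all genes. Among genes with a mean log2 value of at least 8, this share was 59.3%. The median log2 FC of the 13 genes was -0.07. The called gene was MAFG, which encodes a small MAF partner of NRF2. Its log2 values were 9.19, 9.13, 9.25 and 9.22 in pGRHL2 and 9.52, 9.58, 9.47 and 9.49 in pcDNA3, with every pGRHL2 library below every pcDNA3 library. MAFG had a log2 FC of -0.32 ± 0.10 (SD over 4 pairs; limma adjusted p of 0.0354). Its call was lost with any 3 of the 4 pairs (limma adjusted p of 0.196, 0.159, 0.077 and 0.073 without replicates 1 to 4), without the variance trend (0.0946) and under quantile normalization (0.0646). KEAP1 and BACH1 had log2 FC of -0.07 ± 0.12 and -0.08 ± 0.14 and were not called (limma adjusted p of 0.670 and 0.627). The highest log2 FC among the regulators was 0.13 ± 0.15, for the related factor NFE2L3, which was not called either (limma adjusted p of 0.416).

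**Figure D3:**
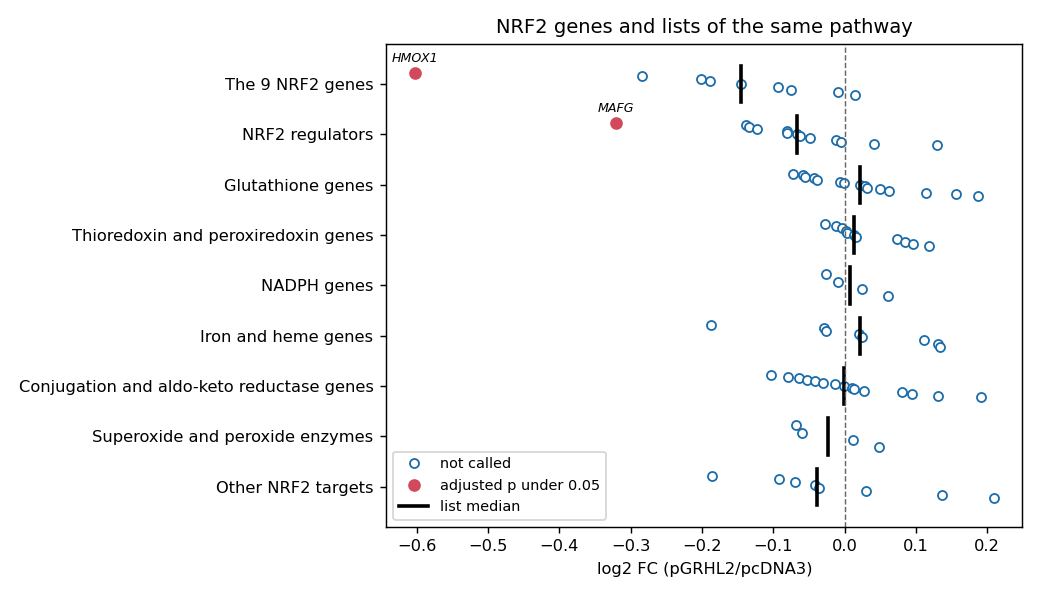
Log2 FC (pGRHL2/pcDNA3, x axis) of the 9 NRF2 genes and of the genes of 8 related lists, with list medians as black bars and genes with a limma adjusted p under 0.05 as filled points. The called genes are HMOX1 (-0.60) and MAFG (-0.32), and the medians of the other 7 lists lie between -0.04 and 0.02.

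The wider redox and detoxification genes were counted in the same way. Of 71 further genes listed for glutathione use, peroxiredoxins, NADPH supply, iron and heme handling, conjugation, superoxide and peroxide removal and other NRF2 targets, 65 were in the table. Among these, 0 were called by limma in either direction, where 2.19% of all genes were called, so that few calls would be looked for among 65 genes. Of the 65, 35 had a higher and 30 a lower mean, and the median log2 FC was 0.01. An unadjusted limma p under 0.05 was found for 6 of the 65 (1 of them lower). Over all 17561 genes it was found for 2802 (1191 of them lower). Of the 65 genes, groups did not overlap for 9 higher and 3 lower genes, against 13.4% and 10.5% of all genes.

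The extremes of these lists did not pass the test. In the list of iron and heme genes, FTH1, the ferritin heavy chain, had the lowest log2 FC, -0.19 ± 0.34, with -0.67 in pair 3 and 0.12 in pair 1. FECH, the last enzyme of heme synthesis, had the highest, 0.13 ± 0.05. Among glutathione genes, SLC3A2, the partner chain of SLC7A11, had a log2 FC of -0.07 ± 0.07 and GLRX, a glutaredoxin, one of 0.19 ± 0.30. The peroxiredoxin genes PRDX2 and PRDX5 had log2 FC of -0.03 and 0.12, the detoxification genes AKR1C2 and GSTM3 of -0.10 and 0.19, and CAT and SOD1, for catalase and superoxide dismutase, of -0.07 and 0.05. AKR1C2 has near-identical paralogs, so that its value is uncertain. Among genes of NADPH supply, TKT, for transketolase, had the lowest log2 FC, -0.03, and PGD, for an enzyme of the pentose phosphate pathway, the highest, 0.06. Other NRF2 targets ranged from -0.19 ± 0.18 for LUCAT1, a long noncoding RNA, to 0.21 ± 0.09 for ABHD4, with limma adjusted p of 0.269 and 0.0986.

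Some of the 9 genes also respond to other factors, whose own readouts are given here by value. NQO1 is shared with the aryl hydrocarbon receptor, and 1 of 7 genes of that list was called. This was the cytochrome CYP1A1, which was lower by -0.79 ± 0.24 (SD, n = 4 pairs; limma adjusted p of 0.0037). CYP1A2 had the highest log2 FC, 0.08, but at a mean log2 value of 1.73, against 10.99 for CYP1A1. SLC7A11 is shared with ATF4, a factor of the amino acid response. Of the 8 genes of this list 0 were called by limma and 1 had an unadjusted p under 0.05, against 2802 of all 17561 genes. The extremes were -0.13 ± 0.08 for ATF4 itself and 0.11 ± 0.16 for PSAT1. HMOX1 is shared with the heat shock response. Of 8 heat shock genes listed, 6 were in the table, HSPA1A and HSPA1B being absent. Among the 6, 1 was called, against 2.19% of all genes. The called gene was HSPA6, at a mean log2 value of 5.05, which was higher by 1.47 ± 0.34 (limma adjusted p of 7.76e-04). HSF1 had the lowest log2 FC, 0.01. Without the variance trend, neither CYP1A1 nor HSPA6 was called (limma adjusted p of 0.0803 and 0.0755).

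The genes whose 4 pair differences lay nearest to those of HMOX1 in Euclidean distance were, outside the set, FOSB, SNAI1, BCL3, ID2 and FOS, with distances of 0.26, 0.30, 0.34, 0.35 and 0.39 on the log2 scale. Their log2 FC were -0.54, -0.66, -0.60, -0.48 and -0.44, with limma adjusted p of 0.0086, 0.0143, 0.0037, 0.0497 and 0.0452. Without the variance trend, none of these genes was called (limma adjusted p of 0.0668 to 0.181). ID2 and FOS also lost their call under quantile normalization (0.0693 and 0.0719). Without replicate 1, 2 or 3, neither ID2 (limma adjusted p of 0.222, 0.179 and 0.152) nor FOS (0.190, 0.159 and 0.124) was called. SNAI1 lost its call without replicate 1 or 2 (0.0751 and 0.0582) and FOSB without replicate 3 (0.0626). BCL3 kept its call with each replicate left out in turn (0.0332, 0.0188, 0.0318 and 0.0168). With 4 values per gene and 17561 genes, near neighbours exist for most patterns, and this is a description of likeness in these libraries. The genes were picked for pair differences close to those of HMOX1, which was lower in every pair. Their negative log2 FC and low adjusted p therefore follow largely from that choice and are not separate evidence. FOSB and FOS encode AP-1 subunits, SNAI1 a repressor of epithelial genes, BCL3 a cofactor of NF-kB and ID2 an inhibitor of basic helix-loop-helix factors.

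**Figure D4:**
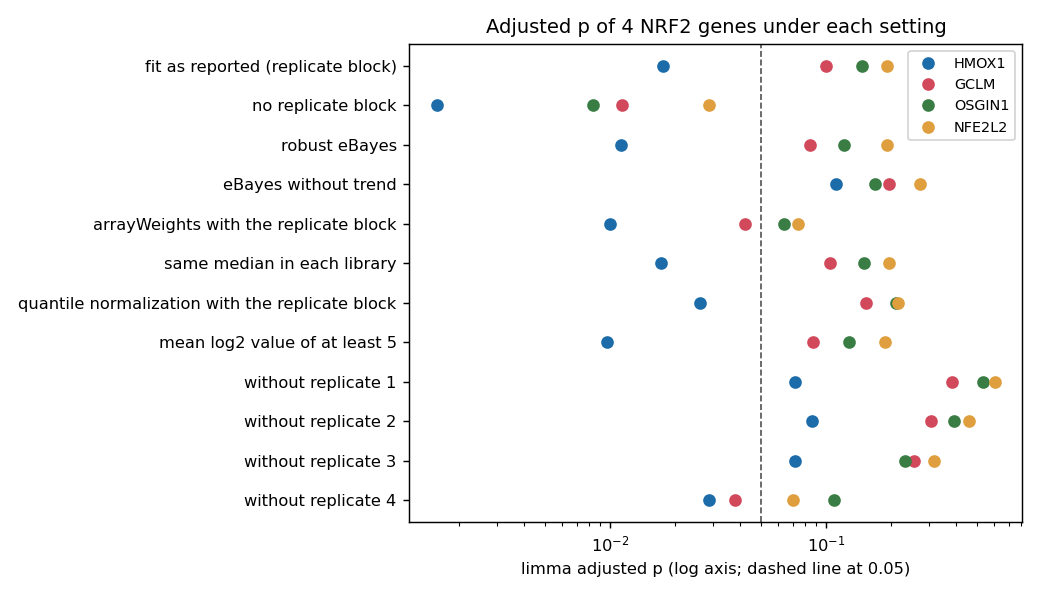
Limma adjusted p (x axis, log scale) of HMOX1, GCLM, OSGIN1 and NFE2L2 in the fit as reported and under 11 other settings, with a dashed line at 0.05. HMOX1 is left of the line in 7 of the 11 settings and right of it without the trend and without replicates 1, 2 or 3, and GCLM is left of it in 3.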

How the data were processed

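Plasmids and replicate numbers came from the labels. The authors mapped reads to hg38 (HISAT2 2.2.1 per the submitters' processing notes), counted them over exons with HTSeq 0.9.1 without strand, dropped genes with low counts, used the rlog of DESeq2 and scaled the result by transcript length. The deposited values, named FPKM, were read as log2 values: had the rlog been divided by length in kb, 932 of 17537 genes would need an rlog above 30, beyond any read count. In the tenth of genes that varied least, the value fell with log2 transcript length (slope -0.78, R2 of 0.18), short of -1, so that the form of the length scaling is not certain. Rlog shrinks the changes of weakly expressed genes. In 17561 of 17561 genes, the mean of the same-numbered libraries was identical for the 4 numbers (tolerance 1e-09), a step the methods do not describe. It makes the correlation check for pairing void, and the replicate number was used as a block, as planned. A stray character was removed from 1 value.

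All genes were fitted with limma 3.58.1 in R 4.3.3 (lmFit, eBayes with trend), with Benjamini-Hochberg adjustment and a threshold of 0.05. The script was run on simulated data in which the spreads of pair differences were shuffled over genes, so that this run cannot speak for the variance trend. An exact sign-flip test of 4 pairs cannot go below p = 0.125 and was not used. Labels do not say whether libraries came from separate cultures, so p-values measure the spread between these samples, although the study calls them independent biological replicates. Intervals are 95% intervals of the moderated statistic.

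Members and lists were chosen with earlier results of these data known. Named were the 9 genes, GRHL2, called genes and the extremes of each list, CYP1A1, ATF4, HSPA6, KEAP1 and BACH1, and the 5 nearest genes to the member with the largest change. Gene models came from GENCODE release 44. Marker lists for cholangiocytes, fibroblasts and endothelium had 0 called genes of 5, 2 and 2 in the table. One gene of the lists is not reported here, and list counts are given without it.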

Additional observations from a re-analysis of the deposited data

How the results depend on the processing

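Without the replicate block, limma called 1821 genes higher and 1427 lower in place of 297 and 88, and 4 of the 9 NRF2 genes lower, NFE2L2, GCLM and OSGIN1 being added to HMOX1 (adjusted p of 0.029, 0.011 and 0.0084). That fit counts the mirrored values of a pair as separate samples. Without the variance trend, 4 genes were higher, 2 lower and 0 NRF2 genes called. With arrayWeights, 503 genes were higher and 221 lower, 2 NRF2 genes among the latter. The 2 counts were 184 and 57 under quantile normalization, and 77 and 10 at an adjusted p under 0.01 (0 NRF2 genes). With a mean log2 value of at least 5, 63 genes were higher and 81 lower. Leaving out replicates gave 79 to 156 higher genes, 8 to 68 lower genes and 0 to 2 NRF2 genes called lower. The causes were not tested.

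SRXN1 had a log2 FC of -0.0013 under quantile normalization, and with arrayWeights PRDX2 had 0.0159 and HSF1 -0.0012. When replicates were left out, the log2 FC ranged from -0.0247 to 0.0067 for NQO1, from -0.0796 to 0.0639 for PRDX2 and from -0.0405 to 0.0454 for HSF1. With the 4 pairs present, 64 of 71 values of the 9 genes kept direction and call under the other settings, and with 3 pairs 31 of 36 did. Several settings, such as the fits without the replicate block or the variance trend, leave the log2 FC unchanged, so that direction could not change there. Most of the 9 genes were uncalled from the start, so these shares do not measure how firm a call is. HMOX1, the only called gene of the 9, kept its call in 7 of 11 other settings and lost it at an adjusted p under 0.01.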
